A study of Mus musculus with 12 samples.

Results

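A set of 9 genes of the muscle atrophy programme was followed through hearts of mice given endotoxin with or without a herbal decoction: the ubiquitin ligase genes Fbxo32, Trim63, Trim54 and Fbxo30, the transcription factor genes Foxo1, Foxo3 and Klf15, the polyubiquitin gene Ubb, and Mstn, the gene of myostatin. They were chosen by name, and their expression is the FPKM (sequenced fragments per unit of transcript length, corrected for depth) summed over the annotated transcripts that were listed for all libraries. Of the 9 genes, 8 had such a transcript and all 8 passed the limit on low values, out of 11509 genes tested and 12866 listed. Mstn had 0 listed transcripts of the 2 annotated and was not analysed here. The 12 libraries came from hearts of wild-type C57BL/6 mice, 4 mice in each of 3 groups, all from day 3. LPS+XJDHT mice received lipopolysaccharide (LPS) at 10 mg/kg and Xijiao Dihuang decoction (XJDHT), a traditional Chinese herbal formula, at 50 mg/kg per day. LPS mice received the same dose of lipopolysaccharide and saline, and Control mice received saline for both. LPS is a cell wall component of Gram-negative bacteria that sets off systemic inflammation and serves as a model of sepsis without a living infection. Age and sex are not stated in the labels.

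Muscle cells shed protein largely through the ubiquitin-proteasome system, in which E3 ligases pick the substrates to be tagged with ubiquitin. Atrogin-1, the product of Fbxo32, and MuRF1, the product of Trim63, are the ligases best known from wasting skeletal muscle, and both are also made by heart muscle cells. FoxO factors drive transcription of both genes when insulin and growth factor signalling through Akt is low, glucocorticoids act on the same genes in part through Klf15, and myostatin is a secreted inhibitor of muscle growth.

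The promoters of 8 of the 9 genes were found in the RefSeq table for GRCm38.p6, which gives 250 bases before and 50 bases after each gene start; Fbxo32 is named only. Motifs were searched on both strands by their letters: GTAAACA for FoxO and CCNCNCCC for KLF factors, with the longer spaced elements of the glucocorticoid receptor and of NF-kB given by name. Of the promoters found, that of Trim63 held the FoxO letters, which were present in 3.65% of 32851 promoters, and the glucocorticoid receptor letters, present in 0.414%. The matches lie side by side, starting at -206 and -194 relative to the gene start. In the Trim54 promoter the 2 KLF matches overlap, and KLF letters were present in 49.5% of promoters. NF-kB letters were present in 50.8% of promoters, among them that of Trim63. Trim63 and Trim54 are shown because they are paralogs of which Trim54 passed the test after LPS and Trim63 did not. Positions are counted from RefSeq's gene start, which for Trim54 differs from the GENCODE start given with its values. Capitals mark the glucocorticoid receptor and FoxO letters in Trim63 (chr4:134314870-134315169, plus strand) and the KLF letters in Trim54 (chr5:31116362-31116661, plus strand).
Trim63: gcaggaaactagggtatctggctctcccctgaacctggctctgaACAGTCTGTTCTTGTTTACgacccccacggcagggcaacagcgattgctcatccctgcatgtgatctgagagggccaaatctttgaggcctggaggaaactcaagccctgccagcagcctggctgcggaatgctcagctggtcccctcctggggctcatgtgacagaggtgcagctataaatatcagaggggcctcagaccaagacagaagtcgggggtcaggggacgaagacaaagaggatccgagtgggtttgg
Trim54: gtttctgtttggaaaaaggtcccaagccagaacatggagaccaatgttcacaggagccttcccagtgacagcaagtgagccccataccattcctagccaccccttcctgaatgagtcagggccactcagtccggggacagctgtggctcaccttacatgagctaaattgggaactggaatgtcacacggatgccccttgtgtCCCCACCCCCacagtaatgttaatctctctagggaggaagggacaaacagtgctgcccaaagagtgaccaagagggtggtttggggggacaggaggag
A match describes letters in the window and not a bound site.

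The libraries held 73.8 to 77.8 M fragments, recovered from the spacing of the values. Pearson's r across genes on the log2(FPKM + 1) scale was 0.944 to 0.955 among LPS+XJDHT libraries, 0.925 to 0.951 among LPS libraries and 0.953 to 0.957 among Control libraries. LPS+XJDHT replicate 2 stood apart in the summed level of 4 Y-linked genes, at 0.205 FPKM against 20.4 to 61.9 FPKM in the other libraries, and results that change without it are given both ways. All 10 of 10 cardiomyocyte markers were listed and none was at 0, which also held for the fibroblast and endothelial markers given below. The cardiomyocyte markers stood out by their level. Their summed level was 8923 to 13019 FPKM in LPS+XJDHT, 10790 to 12958 FPKM in LPS and 22553 to 23689 FPKM in Control, above every other marker sum given here. This sum is carried by a few abundant genes such as Actc1, Myh6 and Mb: in LPS against Control 6 of 9 tested markers fell, while Tnnt2 (1328 FPKM in LPS and 1366 FPKM in Control), Ryr2 (8.69 and 8.88 FPKM) and Pln did not pass the test. Of 13 skeletal muscle markers 3 were listed, with sums of 98.5 to 125 FPKM in LPS+XJDHT, 68.9 to 230 FPKM in LPS and 209 to 280 FPKM in Control. The 7 listed neutrophil markers of 10 summed to 75.4 to 152 FPKM in LPS+XJDHT, 79.3 to 118 FPKM in LPS and 1.23 to 2.72 FPKM in Control, with Camp at 0 in every Control library. Fibroblast markers, 8 of 8 listed, summed to 698 to 1090 FPKM in LPS+XJDHT, 781 to 1028 FPKM in LPS and 433 to 539 FPKM in Control. Endothelial markers, 8 of 8 listed, summed to 809 to 1034, 748 to 1093 and 599 to 698 FPKM in the same groups. In LPS against Control 1 of 8 endothelial markers was called higher and 0 lower, where 26.6% of all tested genes were called higher. Their median log2 fold change was 0.11, against 0.16 over all tested genes. Macrophage and monocyte markers, 9 of 10 listed, summed to 90.45 to 182, 89.9 to 236 and 142 to 224 FPKM in the same groups, with 4 called higher and 0 lower after LPS. In whole tissue, fewer cells of a type and less RNA per cell cannot be told apart. The part of these markers in the results that follow was not tested.

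Trim54 was the member that rose after LPS. It encodes MuRF3, a ligase of the sarcomere and of microtubules in striated muscle, and lies at chr5:31116712-31137630 on the plus strand of GRCm38 (mm10). Its level was 157, 140, 155 and 143 FPKM in the 4 LPS hearts and 88.9, 89.4, 96.4 and 95.1 FPKM in the 4 Control hearts. The groups did not overlap, as was the case in this direction for 25.3% of tested genes, and the spread within each was narrow. The means were 149 ± 8.54 FPKM in LPS and 92.4 ± 3.87 FPKM in Control (SD, n = 4 each), a log2 fold change of 0.68 ± 0.08 (SE; limma on log2(FPKM + 1), adjusted p = 4.79e-05). Trim54 was the 1 member of 8 past an adjusted p of 0.05, where 38.6% of all tested genes were called and 26.6% were called higher. The median gene moved by 0.16 on the log2 scale in this comparison, and after median-ratio scaling, which removed that shift, Trim54 still rose by 0.48 (adjusted p = 0.000215).

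**Figure D1:**
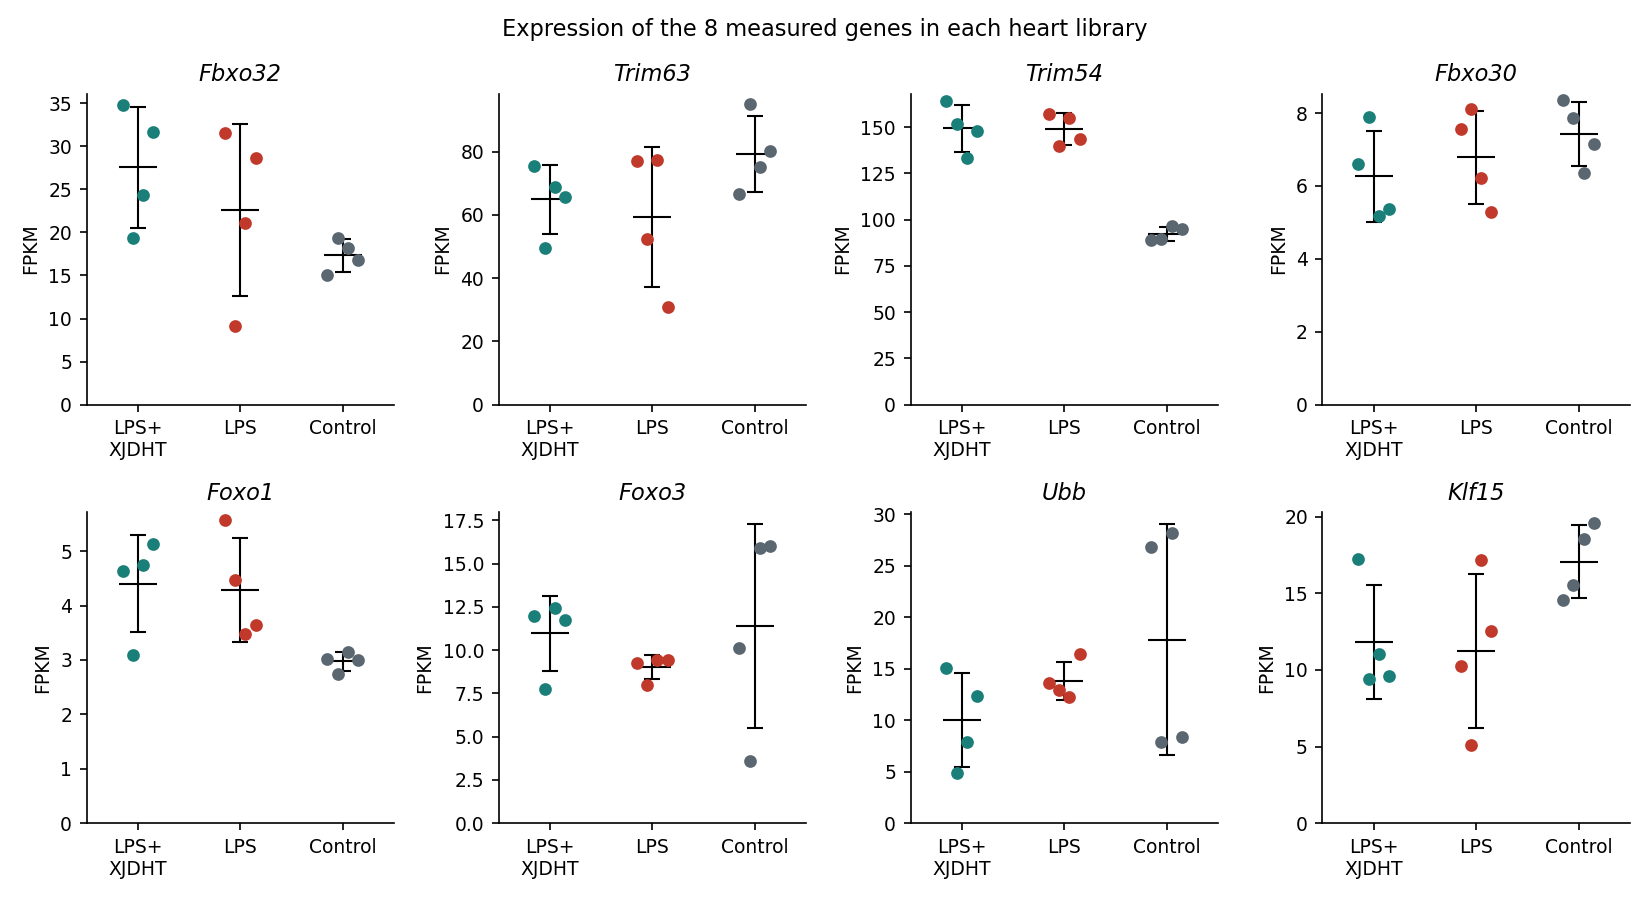
Expression of the 8 members in each library, in FPKM, with LPS+XJDHT, LPS and Control from left to right; points are hearts and bars are means with SD (n = 4). Trim54 sits at 140 to 157 FPKM in LPS, above all 4 Control hearts at 88.9 to 96.4 FPKM, while Fbxo32, Trim63 and Klf15 are spread widely after LPS.

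Fbxo32 (chr15:58175879-58214932, minus strand) encodes atrogin-1, the F-box protein that recruits substrates to an SCF-type ligase. It measured 31.5, 9.18, 21.1 and 28.7 FPKM in LPS hearts and 15.03, 19.4, 18.2 and 16.8 FPKM in Control hearts. LPS hearts lay on both sides of the Control range: 3 were above it and replicate 2 was below it. The log2 fold change was 0.24 ± 0.32 (95% interval -0.45 to 0.93, limma adjusted p = 0.584). The highest LPS heart was 3.43 times the lowest, against 1.29 times in Control. Without LPS replicate 2 the log2 fold change was 0.60 and passed the threshold (adjusted p = 0.0378), so that library decides the call.

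Trim63 (chr4:134315120-134329629, plus strand), the gene of MuRF1, a ligase of thick filament proteins, had 76.9, 52.3, 77.2 and 31.0 FPKM in LPS hearts and 66.4, 95.1, 75.1 and 80.1 FPKM in Control hearts. A pair of LPS hearts lay within the Control range and the others below it. The log2 fold change was -0.49 ± 0.26 (95% interval -1.05 to 0.07, limma adjusted p = 0.156). Under median-ratio scaling it was -0.68 (adjusted p = 0.0529), just short of the threshold. Trim63 was thus not called in either direction. A retained-intron transcript, Trim63-203, is listed for LPS and Control only; it had 0.104, 0.453, 0.415 and 0.293 FPKM in LPS hearts and 0.668, 0.867, 1.17 and 1.90 FPKM in Control hearts, and was not part of the sum or of any test.

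Trim55, the gene of MuRF2 and the remaining member of the MuRF family, is no member of the set but is given because MuRF proteins pair with each other. It had 2.56, 3.78, 6.10 and 2.62 FPKM in LPS hearts and 12.5, 14.9, 14.2 and 26.5 FPKM in Control hearts. Every LPS heart lay below every Control heart, as was the case for 12.1% of tested genes, and the log2 fold change was -1.92 ± 0.28 (limma adjusted p = 0.000282). In LPS+XJDHT hearts Trim55 had 4.07, 2.77, 5.49 and 5.40 FPKM. Among the MuRF genes, then, Trim54 rose after LPS, Trim55 fell and Trim63 did not pass the test.

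**Figure D2:**
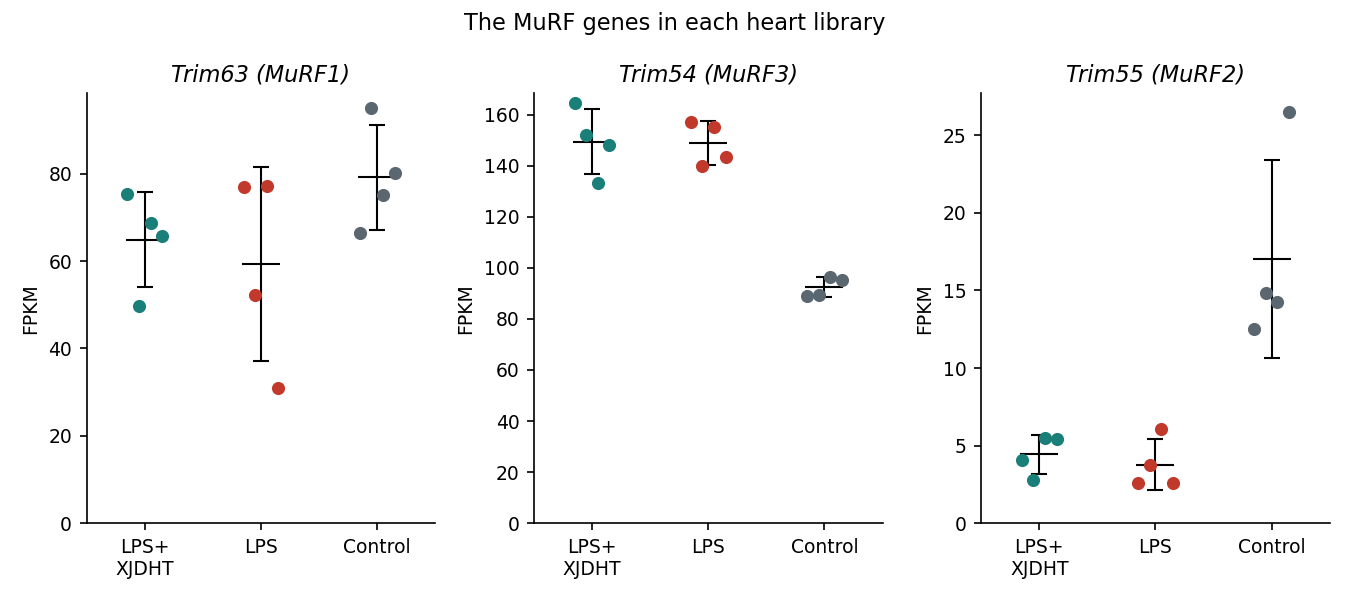
The MuRF genes Trim63 (MuRF1), Trim54 (MuRF3) and Trim55 (MuRF2) by library in FPKM, groups from left to right LPS+XJDHT, LPS and Control; points are hearts and bars are means with SD (n = 4). Trim54 is higher in LPS (149 FPKM) than in Control (92.4 FPKM), Trim55 is lower (3.76 FPKM in LPS and 17.03 FPKM in Control), and Trim63 overlaps.

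Fbxo30 (chr10:11281330-11298052, plus strand) encodes a ligase described in mouse skeletal muscle as induced by denervation (MUSA1). It measured 7.55, 8.10, 6.22 and 5.28 FPKM in LPS hearts and 8.37, 7.86, 6.36 and 7.14 FPKM in Control hearts. The groups overlapped, with a log2 fold change of -0.12 ± 0.15 (limma adjusted p = 0.565).

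Among the transcription factors, Foxo1 (chr3:52268336-52353221, plus strand) was low in all hearts. It had 5.58, 4.46, 3.48 and 3.64 FPKM in LPS hearts and 3.02, 2.74, 3.14 and 3.00 FPKM in Control hearts. All 4 LPS hearts were above all 4 Control hearts, as was the case for 25.3% of tested genes. The log2 fold change of 0.40 ± 0.16 missed the threshold (95% interval 0.05 to 0.74, limma adjusted p = 0.0645). It passed without LPS replicate 3 (adjusted p = 0.042) and without LPS+XJDHT replicate 2 (adjusted p = 0.0345), and was 0.24 under median-ratio scaling (adjusted p = 0.235). Foxo3 (chr10:42181841-42276755, minus strand) had 9.25, 7.99, 9.40 and 9.41 FPKM in LPS hearts and 10.1, 3.60, 15.9 and 16.0 FPKM in Control hearts. Here the Control hearts were the variable ones, and the LPS hearts fell inside their range. The log2 fold change was -0.14 ± 0.35 (limma adjusted p = 0.780), and -0.56 without Control replicate 2 (adjusted p = 0.0416).

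The listed Foxo3 RNA was split over 3 protein-coding transcripts, and this split was compared by exact permutation tests, 24 in all for the transcripts of Foxo3, Ubb and Klf15. The short transcript Foxo3-202 made up 7.19, 13.6, 12.8 and 14.4% of Foxo3 FPKM in LPS hearts and 0.399, 0, 3.50 and 0.0614% in Control hearts. In LPS+XJDHT hearts it made up 18.4, 16.7, 11.99 and 16.7%. Its share was higher in every LPS heart and every LPS+XJDHT heart than in any Control heart. The mean difference was 11.02 percentage points for LPS and 14.9 percentage points for LPS+XJDHT, each against Control. Each gave an exact two-sided p of 0.029, the smallest that 4 against 4 can give, and an adjusted p of 0.171 over the 24 tests. With that floor, an adjusted p below 0.05 needed most of the 24 tests to reach it. The adjusted test could thus hardly pass, and no conclusion is drawn from its outcome. The long transcript Foxo3-203 had the opposite course, with 76.7 ± 4.39% in LPS+XJDHT, 82.1 ± 4.08% in LPS and 94.6 ± 2.19% in Control (SD, n = 4). How the authors shared reads between overlapping transcripts is not given in the sources used here.

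**Figure D3:**
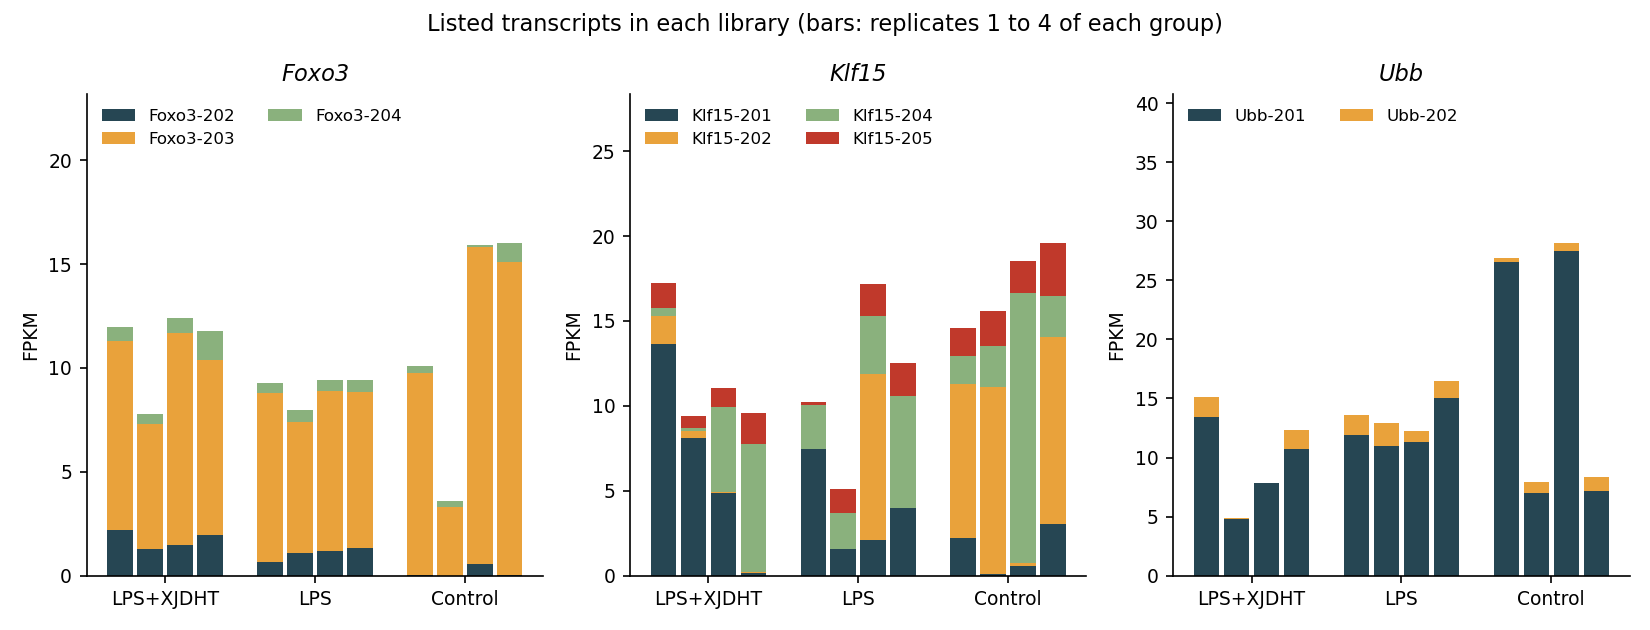
FPKM of each listed transcript of Foxo3, Klf15 and Ubb, stacked to the gene's sum; each bar is a heart, replicates 1 to 4 within LPS+XJDHT, LPS and Control from left to right. Foxo3-202 takes 11.99 to 18.4% of the bar in LPS+XJDHT, 7.19 to 14.4% in LPS and 0 to 3.50% in Control, and the Klf15 transcripts change places between hearts of the same group.

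Klf15 (chr6:90462576-90475238, plus strand) encodes a zinc finger factor induced by glucocorticoids that acts with the glucocorticoid receptor on Fbxo32 and Trim63 in skeletal muscle and restrains cardiac hypertrophy. It measured 10.2, 5.10, 17.2 and 12.5 FPKM in LPS hearts and 14.6, 15.6, 18.5 and 19.6 FPKM in Control hearts. In LPS, 3 of 4 hearts lay below all Control hearts and replicate 3 lay among them. The log2 fold change was -0.66 ± 0.29 (95% interval -1.29 to -0.02), which missed the threshold (limma adjusted p = 0.0979). It passed without LPS replicate 3, at -0.88 (adjusted p = 0.0262), and under median-ratio scaling, at -0.84 (adjusted p = 0.0331). The gene's sum was steadier than its 4 transcripts: Klf15-201 had a share of 52.9 ± 38.8% in LPS+XJDHT, 36.8 ± 25.6% in LPS and 8.70 ± 7.92% in Control. Comparisons of this share gave exact permutation p-values of 0.0857 or more before adjustment.

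Ubb (chr11:62551171-62553213, plus strand) encodes ubiquitin as a chain of repeats, which stress can draw on quickly. It had 13.6, 12.9, 12.3 and 16.4 FPKM in LPS hearts and 26.9, 7.91, 28.1 and 8.36 FPKM in Control hearts. The Control hearts split into a high pair and a low pair, with the LPS hearts between them. The log2 fold change was -0.13 ± 0.42 (limma adjusted p = 0.834). The ubiquitin repeats of Ubb are nearly alike in sequence and have copies elsewhere in the genome, so reads can be split among them, and these values are uncertain.

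The decoction was compared with LPS alone, the contrast that asks whether treated hearts differ from endotoxin hearts. Of 8 members 0 passed the threshold, where 0.113% of all tested genes did, and in 0 of 8 were the groups apart, where 2.82% of genes were. Fbxo32 had 34.9, 19.4, 24.4 and 31.7 FPKM in LPS+XJDHT hearts, and its difference from LPS was 0.37 on the log2 scale (95% interval -0.32 to 1.06). Trim63 had 75.4, 49.7, 68.8 and 65.6 FPKM, all within the LPS range, with a difference of 0.20 (95% interval -0.36 to 0.76). Trim54 had 164, 152, 133 and 148 FPKM in LPS+XJDHT hearts, a mean of 149 FPKM in both groups. Its interval, -0.16 to 0.17, was the narrowest of the 8 members, and it does not reach the size of the LPS rise of 0.68.

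Fbxo30 had 6.62, 7.88, 5.18 and 5.37 FPKM in LPS+XJDHT hearts (95% interval of the log2 difference from LPS -0.44 to 0.24), and Foxo1 had 4.63, 3.10, 4.74 and 5.13 FPKM (-0.31 to 0.37). Foxo3 had 11.99, 7.76, 12.4 and 11.8 FPKM (-0.52 to 1.00), with replicate 2 the lowest, as it was for Fbxo32, Trim63, Foxo1, Ubb and Klf15. Klf15 had 17.2, 9.39, 11.1 and 9.59 FPKM (-0.51 to 0.77). Ubb had 15.1, 4.84, 7.87 and 12.3 FPKM, and its interval of -1.45 to 0.41 was the widest. All limma adjusted p-values of this contrast were 0.996 or more.

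Set against Control, with the same Control hearts as above, LPS+XJDHT hearts had 2 of 8 members called, where 39.2% of all tested genes were. Trim54 averaged 149 ± 12.9 FPKM in LPS+XJDHT and 92.4 ± 3.87 FPKM in Control, a log2 fold change of 0.68 (limma adjusted p = 5.05e-05). Its groups did not overlap, as was the case in this direction for 30.2% of tested genes. The median gene moved by 0.19, and under median-ratio scaling Trim54 was higher by 0.44 (adjusted p = 0.000436). Foxo1 averaged 4.40 ± 0.894 FPKM in LPS+XJDHT and 2.98 ± 0.170 FPKM in Control, a log2 fold change of 0.43 ± 0.16 just past the threshold (limma adjusted p = 0.0484). Without LPS+XJDHT replicate 2, the library that stands apart, that adjusted p was 0.0118. Foxo1 no longer passed when any 1 of the 4 Control hearts was left out, without LPS replicate 2 or 4, or without LPS+XJDHT replicate 1, 3 or 4, with adjusted p-values up to 0.125, and under median-ratio scaling (0.23, adjusted p = 0.257). Fbxo32 had a log2 fold change of 0.61 ± 0.32 (limma adjusted p = 0.148), which passed when these groups were fitted alone (adjusted p = 0.0244) and without LPS replicate 2 (adjusted p = 0.0228), and Klf15 of -0.52 (adjusted p = 0.179).

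**Figure D4:**
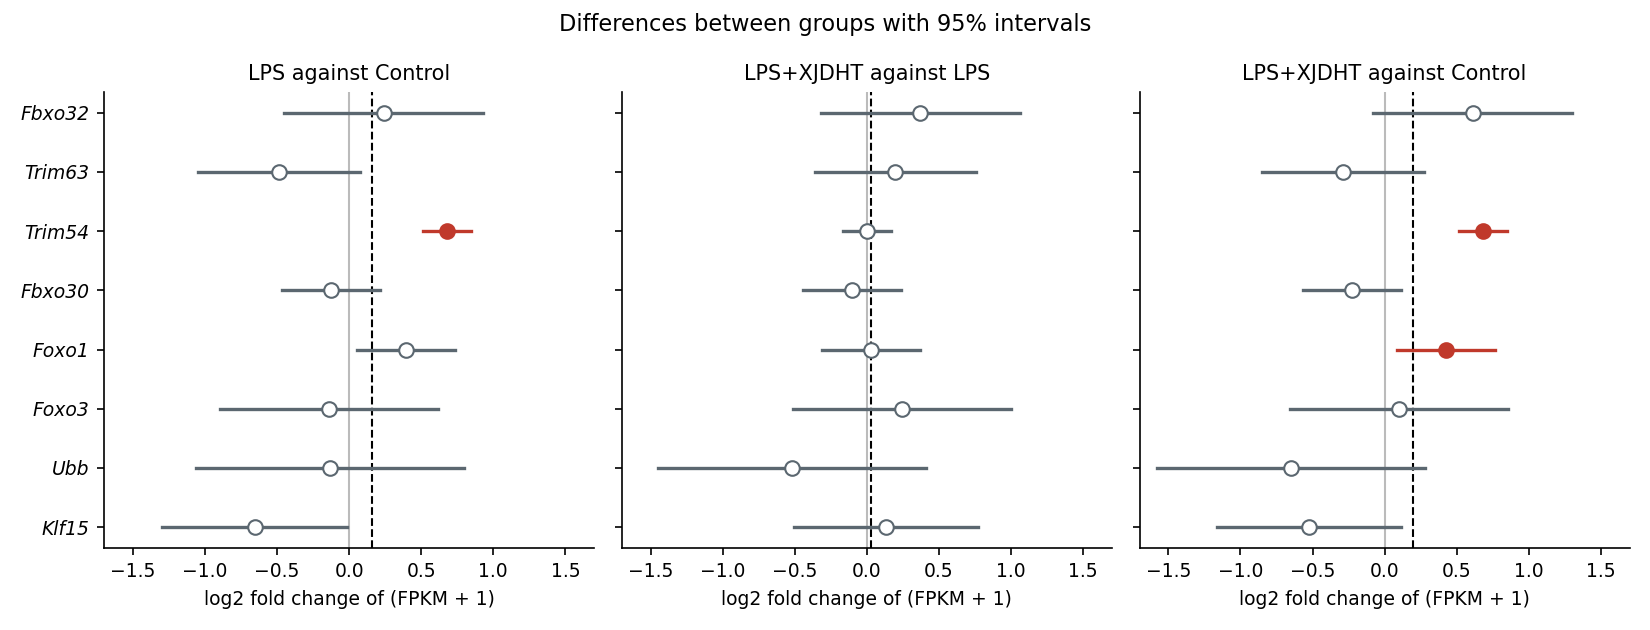
Log2 fold change of (FPKM + 1) of each member with its 95% interval from limma, in panels for LPS against Control, LPS+XJDHT against LPS and LPS+XJDHT against Control; filled points passed an adjusted p of 0.05 and the dashed line is the median of all tested genes. The Trim54 intervals of both comparisons with Control lie above 0, and that of LPS+XJDHT against LPS spans -0.16 to 0.17.

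The genes whose course over the 12 libraries came closest to that of Trim54 were Psmc5, Dazap2 and Eif2s1, among 5688 genes averaging at least 5 FPKM. Psmc5, an ATPase subunit of the proteasome's regulatory particle, differed from Trim54 by a root mean square of 0.0540 on the log2 scale after centring. It averaged 69.0 FPKM in LPS+XJDHT, 68.8 FPKM in LPS and 44.6 FPKM in Control. Dazap2 averaged 119 FPKM in LPS+XJDHT, 119 FPKM in LPS and 74.1 FPKM in Control. Eif2s1, the alpha subunit of the initiation factor eIF2, averaged 18.1 FPKM in LPS+XJDHT, 18.6 FPKM in LPS and 11.4 FPKM in Control. A rise with all LPS hearts above all Control hearts was seen in 25.3% of tested genes. Whether these genes share regulation with Trim54 was not tested.

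Of 18 genes tested from a list of other muscle ubiquitin ligases, 2 rose and 6 fell after LPS, with Zfand5, which is no ligase itself, among the falls. Over all tested genes 26.6% were called higher and 12% lower, which is the background for this and the following lists of the same comparison. The median log2 fold change was 0.20, against 0.16 over all tested genes. Beside Trim55, the largest falls included Asb2, a ligase subunit that acts on filamins, at 38.2 ± 18.8 FPKM in LPS and 83.1 ± 14.3 FPKM in Control (a log2 fold change of -1.21, limma adjusted p = 0.0101). Trim72, the membrane repair protein MG53, averaged 58.1 ± 19.7 FPKM in LPS and 127 ± 6.39 FPKM in Control (a log2 fold change of -1.18, adjusted p = 0.000677). Zfand5, a ubiquitin-binding activator of the proteasome, averaged 22.6 ± 6.19 FPKM in LPS and 39.2 ± 4.38 FPKM in Control. Wwp1 and Fbxo40 were the remaining falls and Fbxo31 and Ube4b the rises, named after their values were seen; the Ube4b call was lost in 5 alternatives. Trim55 and Trim72 are made mainly by muscle cells, and the cardiomyocyte marker sum moved the same way, although Tnnt2, Ryr2 and Pln did not pass the test.

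Of 19 genes for ubiquitin and its E1 and E2 enzymes, 4 rose and 2 fell, with a median of 0.21. Uba1, the main ubiquitin-activating enzyme, averaged 64.3 ± 4.05 FPKM in LPS and 46.5 ± 5.12 FPKM in Control (a log2 fold change of 0.46, limma adjusted p = 0.00333). Ube2e1 rose by 0.72 and Ube2j1 by 0.53 on the log2 scale, while Ube2d1, an E2 conjugating enzyme, was at -0.67. Under median-ratio scaling 3 of these genes rose and 5 fell.

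Of 18 FoxO family members and upstream regulators, 1 rose and 1 fell, with a median of 0.04. Sgk1, a kinase that phosphorylates FoxO factors, averaged 78.7 ± 16.9 FPKM in LPS and 47.5 ± 3.48 FPKM in Control (a log2 fold change of 0.69, limma adjusted p = 0.00183). Foxo4 averaged 11.2 ± 2.498 FPKM in LPS and 15.4 ± 1.25 FPKM in Control (a log2 fold change of -0.45, adjusted p = 0.0344), a call lost in 7 alternatives with adjusted p up to 0.083. Akt2 and Pik3ca did not pass (adjusted p = 0.0737 and 0.0854). Under median-ratio scaling 1 of these genes rose and 6 fell.

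FoxO target genes outside the ligases moved in both directions: of 23, 8 rose and 4 fell, with a median of 0.08, and under median-ratio scaling 7 rose and 7 fell. Eif4ebp1, the repressor of cap-dependent translation, averaged 54.1 ± 5.64 FPKM in LPS and 15.3 ± 1.19 FPKM in Control (a log2 fold change of 1.75, limma adjusted p = 1.45e-06). Map1lc3b, the autophagosome protein LC3B, averaged 90.8 ± 15.6 FPKM in LPS and 34.9 ± 2.59 FPKM in Control (log2 fold change 1.34). Txnip, an inhibitor of thioredoxin and glucose uptake, rose by 1.27, and the lysosomal protease Ctsl by 0.94. The 4 falls were Sesn1 (-1.39), Bcl6 (-0.89), Trp53inp2 (-0.70) and Sesn3 (-0.34). In the alternatives, limma adjusted p reached 0.0526 for Sesn1 and 0.106 for Sesn3. Bnip3, Map1lc3a, Gabarapl1 and Ulk1 were among the 11 genes that did not pass. The genes of this list have regulators other than FoxO.

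Of 14 glucocorticoid receptor genes and targets, 5 rose and 0 fell, with a median of 0.39 and the same counts under median-ratio scaling. The 9 others did not pass. Among them the targets Fkbp5 (0.03 on the log2 scale), Tsc22d3 (-0.35), Per1 (0.31), Zbtb16 (-0.17) and Ddit4 (0.06) had limma adjusted p-values of 0.423 or more. Mt2 was at 2.08 (adjusted p = 0.156). Hsd11b1, which regenerates active glucocorticoid, averaged 66.2 ± 23.9 FPKM in LPS and 5.40 ± 2.78 FPKM in Control (a log2 fold change of 3.45, limma adjusted p = 0.000104). Cebpd, a transcription factor also induced by inflammation, averaged 23.1 ± 8.45 FPKM in LPS and 6.98 ± 0.884 FPKM in Control. Lcn2 and Sgk1 were the others named by the rule. Lcn2 averaged 2425 ± 528 FPKM in LPS and 7.39 ± 3.64 FPKM in Control (a log2 fold change of 8.23, limma adjusted p = 3.41e-09). Lcn2 is also a neutrophil product, and the sum of the 7 listed neutrophil markers rose too, to 79.3 to 118 FPKM in LPS. The cell source of the Lcn2 RNA was not tested.

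Of 14 KLF family genes and reported KLF15 targets, 2 rose and 2 fell, with a median of -0.12, and under median-ratio scaling 2 rose and 4 fell, with a median of -0.31. Klf6 rose by 1.00 and Klf10 by 0.85 on the log2 scale. Kcnip2, a potassium channel subunit whose cardiac rhythm depends on Klf15 in mice, averaged 4.98 ± 3.27 FPKM in LPS and 25.4 ± 4.48 FPKM in Control (a log2 fold change of -2.27, limma adjusted p = 0.000482). Slc2a4, the insulin-responsive glucose transporter GLUT4, averaged 10.3 ± 1.59 FPKM in LPS and 38.0 ± 9.75 FPKM in Control (log2 fold change -1.76). Both are muscle genes, and the cardiomyocyte marker sum moved the same way, with the exceptions among its genes given above. The other tested targets, Bcat2 (-0.04 on the log2 scale), Prodh (-0.12), Gpt (-0.59), Gata4 (0.34) and Hand2 (-1.32), did not pass. Their limma adjusted p-values were 0.119 or more. The rises were KLF family genes and the falls reported targets.

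In the myostatin and activin pathway, 12 of the 18 genes named were tested. Of these 12, 6 rose and 0 fell, with a median of 0.49, where 26.6% of all tested genes were called higher. Under median-ratio scaling 5 rose and 0 fell. Inhbb, the activin B subunit, had 33.0, 17.3, 6.24 and 11.8 FPKM in LPS hearts and 1.23, 0.951, 1.23 and 1.01 FPKM in Control hearts. The groups did not overlap, as was the case in this direction for 25.3% of tested genes. The log2 fold change of Inhbb was 2.88 ± 0.37 (limma adjusted p = 0.000124). Fstl3, a secreted binder of activins and myostatin, averaged 14.4 ± 5.21 FPKM in LPS and 3.46 ± 0.873 FPKM in Control. The type I receptor gene Acvr1b averaged 12.7 ± 5.46 FPKM in LPS and 4.27 ± 0.361 FPKM in Control, and Fstl1 rose by 0.85 on the log2 scale. Smad2 (0.62) and Smad4 (0.67) were the remaining rises. That of Smad4 was not stable: with protein-coding transcripts only, Smad4 was at -0.2636. The fibroblast marker sum moved the same way, with 4 of 8 markers called higher and 1 lower, and its part in these values was not tested.

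Of 12 reported protein substrates of MuRF1 and atrogin-1, 2 rose and 7 fell at the RNA level, with a median of -0.64, where 12% of all tested genes were called lower. Under median-ratio scaling 1 rose and 7 fell. Actc1, cardiac alpha-actin, Myh6, alpha-myosin heavy chain, Myl2, the ventricular regulatory light chain, and Ckm, muscle creatine kinase, were at -2.40, -1.15, -0.91 and -0.90 on the log2 scale. Des, the intermediate filament desmin, rose by 0.70. RNA levels do not report on protein breakdown, and several of these genes are also among the cardiomyocyte markers given above.

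**Figure D5:**
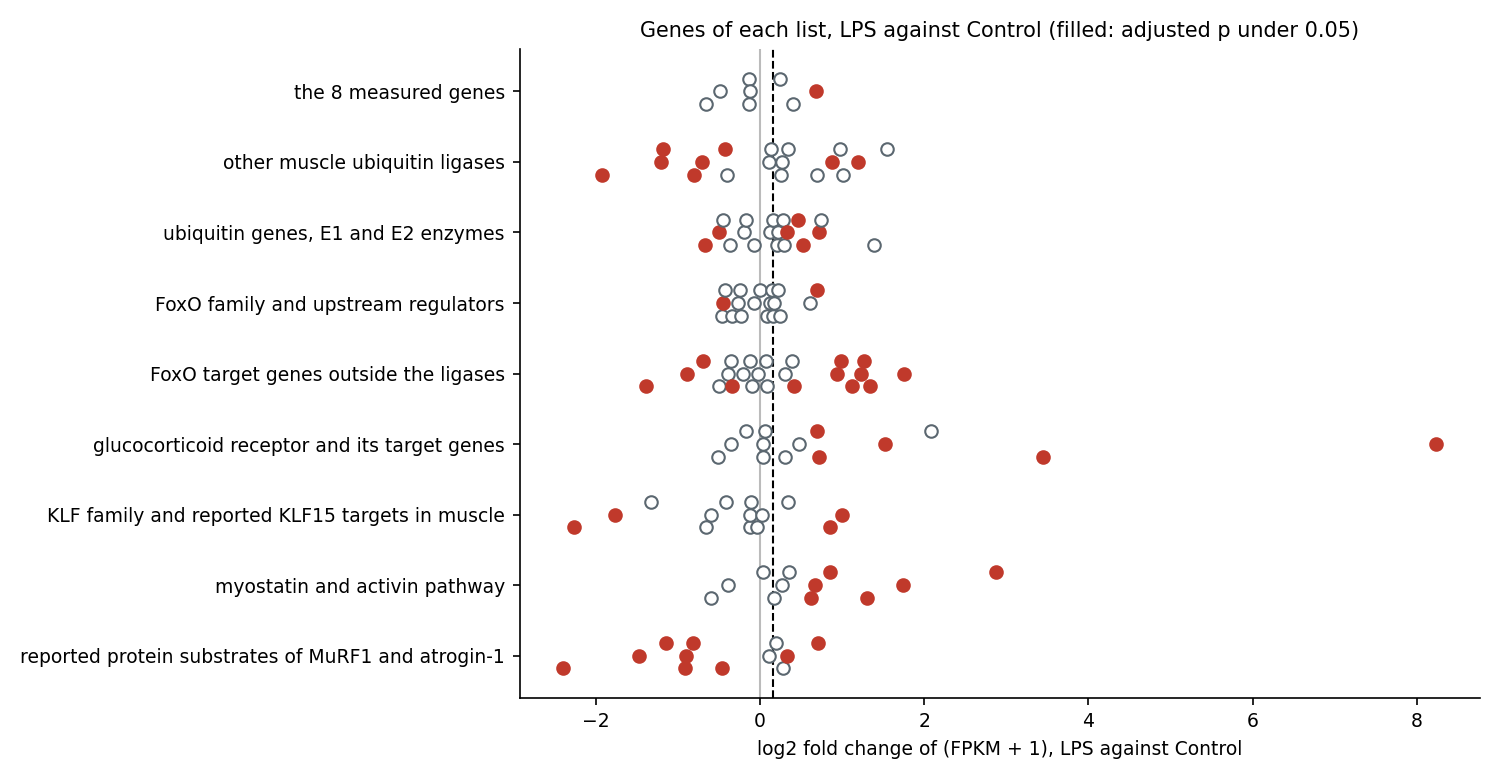
Each point is a tested gene placed at its log2 fold change of (FPKM + 1) in LPS against Control, 1 row per list; filled points passed an adjusted p of 0.05 and the dashed line is the median of all tested genes, 0.16. The myostatin and activin row has 6 filled points of 12, all above 0, and the substrate row has 7 filled points below 0 and 2 above.

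In LPS+XJDHT against LPS, 0 genes passed the threshold in any of these pathway lists. Over all genes 13 passed by limma, all of them lower in LPS+XJDHT, 14 by limma-voom on recovered fragments, and 551 had an unadjusted p below 0.05. Without LPS+XJDHT replicate 2, 15 passed, 1 of them higher in LPS+XJDHT. Transcripts high in LPS+XJDHT alone could be missing from the shared list, as described under processing. The lack of higher genes can therefore not be read as a result. Among the 13 were all 5 tested small intestine markers, whose 6 listed genes summed to 0.306 to 1.34 FPKM in LPS+XJDHT, 11.3 to 17.7 FPKM in LPS and 0.539 to 1.55 FPKM in Control. Against Control, LPS+XJDHT hearts had 1 gene of the other muscle ligase list called higher and 6 lower, with Zfand5 among the 6. In the myostatin and activin pathway 5 genes were called higher and 0 lower. Over all tested genes 28.5% were called higher and 10.7% lower in this comparison. Inhbb averaged 16.8 ± 4.37 FPKM and Eif4ebp1 46.9 ± 7.14 FPKM in LPS+XJDHT. Each had all 4 hearts above all Control hearts, as was the case for 30.2% of tested genes.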

How the data were processed

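RNA of 12 mouse hearts, depleted of ribosomal RNA, was sequenced, per the labels' protocols. The deposited files give FPKM per transcript. That unit was read from the values: multiplied by transcript length, 98.6 to 98.8% of those checked in each library came within 0.1 of whole fragments. The submitters' processing notes name mm10 and limma with no role; the aligner is not given in the sources used here, nor is the quantifier. The files of Control and LPS list 36293 transcripts and those of LPS+XJDHT 35802, with 33137 shared. In the Control and LPS files the higher of the group means was at least 0.5001 FPKM for every transcript. In the LPS+XJDHT files 3339 transcripts averaged below 0.5 FPKM. Transcripts below 0.5 FPKM in both Control and LPS were thus not in the shared list, however high in LPS+XJDHT. Transcripts that the authors assembled (9371 and 9126) were left out, so reads assigned to them are missing from the gene sums. FPKM was summed per gene over 24723 transcripts of GENCODE for GRCm38.

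Genes reaching 1 FPKM in 4 or more libraries entered 1 limma 3.58.1 model (R 4.3.3) on log2(FPKM + 1), with a trended empirical Bayes prior, two-sided tests, Benjamini-Hochberg adjustment over all tested genes and a threshold of 0.05. This scale understates changes of low genes. Further steps used Python 3.11.15, pandas 2.3.3, NumPy 2.4.6, SciPy 1.17.1 and matplotlib 3.10.9. The fit was tested on simulated data. Groups came from the labels, and p-values measure the spread between these hearts. Named genes are the members, the 4 genes of each pathway list with the smallest adjusted p in LPS against Control, Trim55 as a partner gene, and the 3 genes most like a called member; other names in the lists were added after their values were seen. The members and lists were chosen with earlier results of these data known. Alternatives were other filters, pseudocounts, scalings, transcript sets and fits, and leaving out each library. Some genes are not reported here.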

Additional observations from a re-analysis of the deposited data

Results flagged for a closer look

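Among 213 groups of 4 libraries, over the members and the other named genes, 13 held a library whose distance to the nearest of the others was more than 0.829 of the group's range. Chance flags about 1 in 20 such groups. Among the members these were Foxo3 in LPS+XJDHT replicate 2, at 7.76 FPKM against 11.8 to 12.4 FPKM in the rest of its group, and Foxo3 in LPS replicate 2, at 7.99 FPKM against 9.25 to 9.41 FPKM. LPS+XJDHT replicate 2 also had 1877 FPKM of Actc1, against 668 to 833 FPKM, and 30.0 FPKM of Zfand5, against 19.1 to 19.9 FPKM. In LPS replicate 1, Actc1 was 417 FPKM, against 1117 to 1168 FPKM. Trim55 was 26.5 FPKM in Control replicate 4, against 12.5 to 14.9 FPKM, and Kcnip2 was 18.8 FPKM in Control replicate 2, against 27.2 to 28.6 FPKM. Rps27a, a ubiquitin fusion gene, was 291 FPKM in LPS+XJDHT replicate 1, against 43.0 to 55.7 FPKM. Traf6 was 0.0398 FPKM in LPS replicate 3, against 6.29 to 7.16 FPKM. LPS+XJDHT replicate 3 had 24.8 FPKM of Sesn1, against 13.9 to 14.3 FPKM, and 16.8 FPKM of Klf10, against 13.2 to 13.7 FPKM. LPS+XJDHT replicate 4 had 84.2 FPKM of Sgk1, against 71.9 to 73.9 FPKM, and 19.7 FPKM of Ube2e1, against 20.6 to 20.7 FPKM.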

How the results depend on the processing

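Trim54 stayed past the threshold and higher than Control in both comparisons under every alternative run. No paired analysis was possible because the labels' mouse numbers differ between groups and the replicate numbers used here only name the hearts. Median-ratio scaling turned 3063 genes higher and 1384 lower in LPS against Control into 2145 and 2112, and for LPS+XJDHT against Control 3278 and 1234 into 1967 and 2044. Under it 2 members were called in LPS against Control (Trim54 and Klf15), and the log2 differences turned to -0.0449 for Trim54 and -0.0079 for Foxo1 in LPS+XJDHT against LPS and to -0.1196 for Foxo3 in LPS+XJDHT against Control, where Fbxo30 (-0.44, adjusted p = 0.0471) took the place of Foxo1 among the called. With mitochondrial genes removed, Trim54 was at -0.0025 in LPS+XJDHT against LPS, and with limma-voom Foxo3 was at -0.0928 in LPS+XJDHT against Control. The count called in LPS+XJDHT against LPS, 13, became 43 with no filter and 1 with a limit of 5 FPKM, where fewer genes were tested. Members called in LPS+XJDHT against Control fell to 1 with no filter, with a limit of 5 FPKM (Foxo1 untested), with mitochondrial genes removed and with protein-coding transcripts. With the last, Smad4 was at -0.2636 in LPS against Control. Leaving out each library gave 1 to 3 members called in LPS against Control, 1 to 2 in LPS+XJDHT against Control and 4 to 16 genes in LPS+XJDHT against LPS. In LPS against Control it gave -0.559 to 0.0699 for Foxo3 and -0.4166 to 0.1535 for Ubb. In LPS+XJDHT against LPS it gave -0.0447 to 0.0558 for Trim54, -0.0774 to 0.3521 for Trim63, -0.0443 to 0.1569 for Foxo1 and -0.1692 to 0.3558 for Klf15, and in LPS+XJDHT against Control -0.318 to 0.3109 for Foxo3. Fbxo32 passed in LPS+XJDHT against Control without LPS replicate 2 (adjusted p = 0.0228) and with these groups fitted alone (adjusted p = 0.0244), where 3 members were called. Of 1159 values for 53 other named genes, 1083 kept direction and side of the threshold. The cause of these changes was not tested. Use of every transcript listed for Control and LPS was possible only between those groups.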
